A study of Mus musculus with 26 samples.

Results

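Rods and cones turn light into a change of membrane current with a set of dedicated proteins, and 29 mouse genes for these proteins and for the photoreceptor's outer segment were followed here across single cells of the early postnatal retina. They were taken as a named list. Of them, 17 are rod genes or shared between rods and cones, and 12 are cone genes. Each was read from probe sets annotated to it alone, which gave values for 28 of the 29, out of 18193 genes on the array. The cone channel subunit Cnga3 was not analysed here.

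The cells came from retinas of Notch1fl/fl mice on a C57BL/6 background, which received plasmids by electroporation in the living pup on postnatal day 0 and were harvested on day 3. The 13 cells of the control group (WT) had received CAG:GFP and the 13 cells of the N1-CKO group CAG:Cre with CALNL-GFP, a reporter that Cre switches on. Both groups therefore carried the floxed allele, so WT names cells without Cre, and the CAG promoter that drove Cre is not restricted to a cell type. Single GFP-positive cells were picked, and the cDNA of each was amplified by PCR and hybridised to its own Affymetrix array.

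In a rod or cone, light activates an opsin, which activates the G protein transducin. Transducin releases the inhibition of phosphodiesterase 6, cyclic GMP falls and a channel gated by cyclic GMP closes. Arrestin and recoverin belong to the shut-off of this response, guanylate cyclase activators help to restore cyclic GMP, and peripherin 2 and Rom1 shape the rims of the discs that hold the pigment. In the mouse retina cones are made before birth, whereas rods go on being made after it and take several days to switch on most of these genes, under transcription factors that include Otx2, Crx and Nrl.

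The signal is MAS5 array intensity, with no unit, on arrays that all have the same trimmed mean. A gene was counted as detected in a cell where it was at or above the array's 90th percentile of signal, which lay between 245 and 2409 depending on the cell. Each array thus has the same number of detected probe sets, and detection means among the brightest signals of that cell rather than expressed or not expressed. Means are of log2 signal with signals under 24.99 raised to that value, and a difference is the N1-CKO mean minus the WT mean. Such a difference mixes how many cells had a bright signal with how bright it was. The labels name no animal, so each group stands as 1 sample, no test between the groups was made, and SDs describe the spread between cells.

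The arrays were not of even quality. An 18S ribosomal RNA control split them into 10 arrays with high signal (12106 to 93363) and 16 with low signal (26.9 to 2059), with 5 cells of each group in the high set and 8 in the low set. The ratio of 3' to 5' Gapdh control signal, a measure of truncated cDNA, was at most 3 in 11 WT and 8 N1-CKO cells, with a highest value of 3.26 in WT and 245 in N1-CKO cells. Retinal transcripts were present in both groups, with the eye field factor Pax6 detected in 11 WT and 8 N1-CKO cells. Rpe65, which marks the neighbouring pigment epithelium, was detected in 0 cells. Of 10 measured pigment epithelium markers, 2 (20.0%) were detected in any cell, against 58.1% of all genes. N1-CKO cells 9 and 10 had 1 each.

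Because the genes share regulators, their promoters were searched for short motifs: TAATCC, the core of CRX and OTX2 sites; TGCTGA, the core of NRL sites; and CAGATG, an E-box of NEUROD1. Both strands were read, and the RefSeq table (GRCm38.p6) held 21 of the 29 genes, in windows of 300 bases that hold the start site. TAATCC or its reverse complement GGATTA was in 8 of the 21 genes (38.1%), against 8.14% of the 27025 genes in the table. They were Sag, Gngt1, Cnga1, Aipl1, Rbp3, Guca1a, Unc119 and Gnat2, of which Gngt1, Cnga1 and Guca1a were never detected here. TGCTGA was in 28.6% of the 21 genes against 21.7%, and CAGATG in 19.0% against 19.2%. In Aipl1 the TGCTGA and CAGATG matches overlap. A match is a description of letters and not a site.

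The 200 bases before the start site are shown for 4 genes on the plus strand of GRCm38.p6, with motif letters on either strand in capitals. Rbp3 (chr14:33953803-33954002) is the photoreceptor-restricted rod or shared gene detected in the most cells, and Gnb1 (chr4:155491161-155491360) is the gene detected in all. Sag (chr1:87803480-87803679), a rod gene, and Gnat2 (chr3:108092866-108093065), a cone gene, were added after their matches were seen.
Rbp3: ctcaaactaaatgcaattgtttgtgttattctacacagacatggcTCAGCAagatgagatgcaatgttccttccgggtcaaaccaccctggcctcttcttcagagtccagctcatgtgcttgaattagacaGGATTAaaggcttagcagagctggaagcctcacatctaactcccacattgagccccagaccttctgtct
Sag: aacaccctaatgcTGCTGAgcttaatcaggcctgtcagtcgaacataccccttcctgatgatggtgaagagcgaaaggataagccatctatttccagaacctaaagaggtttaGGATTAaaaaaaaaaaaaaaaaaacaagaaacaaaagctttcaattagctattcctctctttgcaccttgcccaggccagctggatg
Gnat2: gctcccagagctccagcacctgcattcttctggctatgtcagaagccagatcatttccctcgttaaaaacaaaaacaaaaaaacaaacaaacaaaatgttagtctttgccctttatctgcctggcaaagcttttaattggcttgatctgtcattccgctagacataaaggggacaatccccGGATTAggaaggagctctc
Gnb1: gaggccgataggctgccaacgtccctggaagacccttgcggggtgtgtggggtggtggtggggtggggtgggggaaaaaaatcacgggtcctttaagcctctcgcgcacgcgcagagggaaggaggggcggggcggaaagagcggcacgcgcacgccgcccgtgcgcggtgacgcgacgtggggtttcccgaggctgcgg
GGATTA begins 69 bases before the start site in Rbp3, 87 in Sag and 19 in Gnat2, and no searched motif lies in the Gnb1 stretch. A TAATCC match within 100 bases before the start was in 6 of the 21 genes (28.6%) against 2.69% of all, a window chosen after the positions were seen.

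At postnatal day 3, 17 of the 28 measured photoreceptor genes were detected in at least 1 of the 26 cells. That share, 60.7%, stands beside 58.1% of all genes on the array. Wider detection was near its background too: 8 of the 28, or 28.6%, were detected in at least 6 cells, against 25.7% of all genes, and 12 in at least 2 cells, against 45.5%. WT cells had 13 of the genes detected (background 48.0%) and N1-CKO cells 15 (background 50.4%). Among the 17 detected genes, 13 were detected in more N1-CKO than WT cells, which is 76.5% against a background of 43.0% of genes, and 2 in fewer, which is 11.8% against 39.9%. The gap was 1 cell for 7 of the 13 and for both of the 2.

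**Figure D1:**
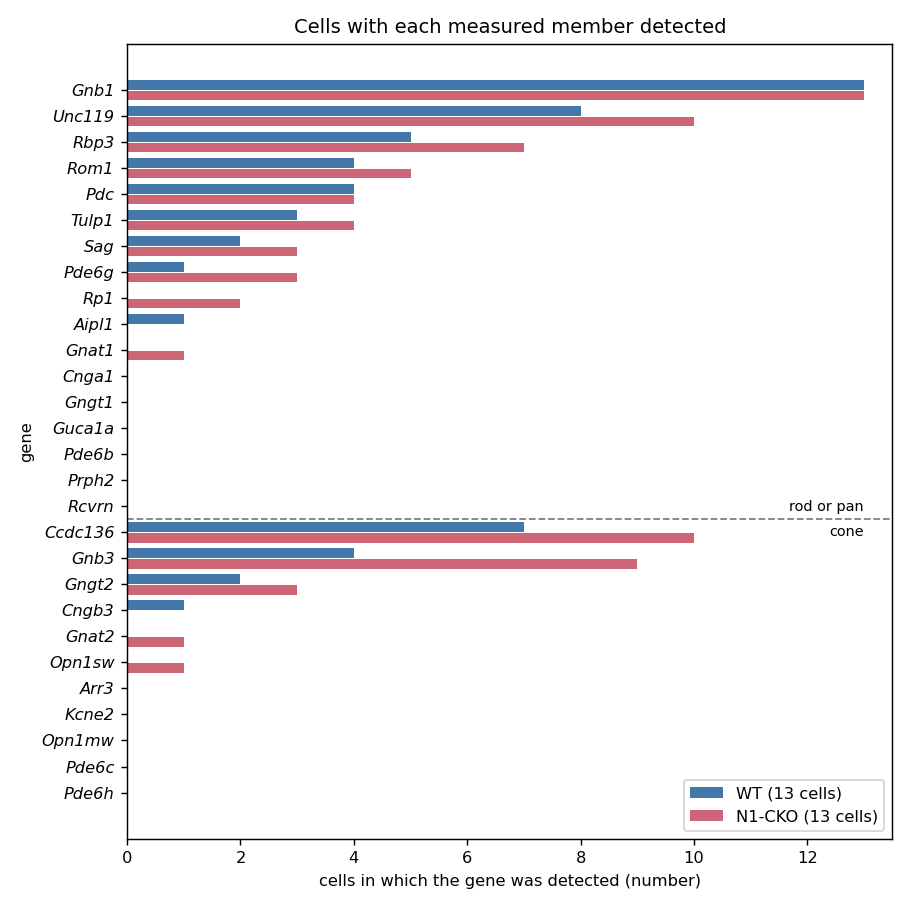
Number of cells, of 13 in each group, in which each of the 28 measured genes was detected (horizontal axis), with WT bars in blue and N1-CKO bars in red. Gnb1 reaches 13 cells in both groups, Gnb3 stands at 4 WT and 9 N1-CKO cells, and 11 genes have no bar.

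The 11 genes never detected come from nearly every step of the light response. They were recoverin (Rcvrn), the rod transducin gamma subunit Gngt1, the rod phosphodiesterase subunit Pde6b, the rod channel Cnga1, the disc rim gene Prph2, the cyclase activator Guca1a, the middle-wavelength opsin Opn1mw, the cone arrestin Arr3, the cone phosphodiesterase subunits Pde6c and Pde6h, and the potassium channel subunit Kcne2. On the probe sets used, their highest signals in any cell lay between 162 and 722. The nearest to detection was Pde6b in N1-CKO cell 10, at 0.911 of that array's threshold. On probe sets not used, Gngt1 reached 769, which counted as detected in 1 N1-CKO cell, and Arr3 reached 532. For a gene detected in 0 of 13 cells the exact Clopper-Pearson 95% interval still allows a share of up to 24.7%, which covers counting error only.

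Another 5 genes were each detected in 1 cell only. Gnat1, the rod transducin alpha subunit, was detected in N1-CKO cell 3 at 8912, and Gnat2, its cone counterpart, in the same cell at 2744. The short-wavelength opsin Opn1sw was detected in N1-CKO cell 10 at 12717, which is 16.0 times that array's threshold. Its other probe set passed in 0 cells of either group and reached at most 597. The cone channel subunit Cngb3 was detected in WT cell 6 at 3831. Aipl1, a chaperone for phosphodiesterase 6, just passed in WT cell 9 (417, or 1.01 times the threshold), while its highest signal in a cell where it was not detected was higher, at 471. Rp1, a microtubule protein of the outer segment, was detected in N1-CKO cells 2 and 3, at 1.03 and 1.11 times their thresholds.

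Gnb1, which encodes the beta subunit of rod transducin and is also used by other G proteins in many cell types, was detected in every cell. Its signal ran from 7637 through a median of 15165 to 32685 in WT cells, and from 255 through 13581 to 42558 in N1-CKO cells. The groups overlapped over the whole WT range, and the low values were in N1-CKO cells 6, 9 and 10. Its mean log2 signal was 13.88 ± 0.66 (SD, 13 cells) in WT and 13.00 ± 2.14 (SD, 13 cells) in N1-CKO, a difference of -0.88, which was -0.46 without N1-CKO cell 6 and -1.46 on the arrays with high 18S signal. Another Gnb1 probe set passed in 7 WT cells and in 4 N1-CKO cells, and its difference was -2.80, and the mean of its probe sets gave -1.33.

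Unc119, a carrier of lipid-modified proteins such as transducin alpha, was found in 8 WT cells and 10 N1-CKO cells. Signals were 1.51 to 77656 (median 7751) in WT and 4.26 to 61559 (median 10907) in N1-CKO cells. Both groups held cells near background and cells with very bright signal, with nothing between 197 and 6434. The mean log2 difference was 1.44, with SDs of 4.44 in WT and 3.60 in N1-CKO cells, and it was -0.11 on the arrays with high 18S signal. It was 0.92 without WT cell 2 or WT cell 12 and 0.94 without WT cell 5.

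Of the genes restricted to photoreceptors, Rbp3 was the one most often detected among the rod or shared genes. It encodes the retinoid-binding protein of the space between photoreceptors and pigment epithelium. It was detected in 5 WT cells (38.5%, exact 95% interval 13.9% to 68.4%) and 7 N1-CKO cells (53.8%, 25.1% to 80.8%). Its signal ran from 1.78 through a median of 136 to 80149 in WT and from 2.05 through 2773 to 65596 in N1-CKO cells. The groups overlapped, and the brightest cell of all was WT cell 9. The mean log2 signal was 8.48 ± 4.31 (SD, 13 cells) and 9.78 ± 4.53 (SD, 13 cells), a difference of 1.29 that turned to -0.24 on the arrays with high 18S signal and was 2.25 on those with low. With single cells left out it lay between 0.77 (without N1-CKO cell 10) and 1.94 (without WT cell 9), and with the mean of its 2 probe sets it was 0.45.

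Rom1, the partner of peripherin in the disc rim, reached detection in 4 WT cells and 5 N1-CKO cells. Its signal spanned 1.29 to 23232 (median 48.6) in WT and 1.36 to 76656 (median 188) in N1-CKO cells. The groups overlapped except for N1-CKO cell 10, the highest. The difference was 0.83 in all cells, -0.73 on the arrays with high 18S signal, 1.81 on those with low and 2.80 where the Gapdh ratio was at most 3. Leaving out N1-CKO cell 10 gave 0.20, and leaving out WT cell 11 gave 1.39.

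Tulp1, which takes part in protein transport to the outer segment, passed in 3 WT cells and 4 N1-CKO cells. Signals were 1.82 to 26077 (median 56.2) in WT and 3.58 to 128089 (median 63.6) in N1-CKO cells, with N1-CKO cell 10 again far above the rest. Pdc, or phosducin, which binds the beta and gamma subunits of transducin, was detected in 4 cells of each group. Its signal was 2.81 to 57549 (median 48.7) in WT and 2.82 to 84988 (median 76.0) in N1-CKO cells, and the ranges covered each other almost wholly. The mean log2 differences were 0.94 for Tulp1 and 0.20 for Pdc, and 1.64 and 1.46 where the Gapdh ratio was at most 3. Without N1-CKO cell 10 they were 0.23 and -0.46. Tulp1 reached 1.54 without WT cell 11, and Pdc 0.83 without WT cell 10.

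Sag, the rod arrestin, was detected in WT cells 6 and 13 and in N1-CKO cells 1, 2 and 3. Signals ran from 4.09 to 11407 (median 60.3) in WT and from 3.80 to 7898 (median 26.1) in N1-CKO cells. The groups overlapped, and the difference of -0.19 was 0.67 among cells whose Gapdh ratio was at most 3, 0.06 on the arrays with high 18S signal, and between -0.70 (without N1-CKO cell 1) and 0.35 (without WT cell 13) with single cells left out. Pde6g, the inhibitory subunit of rod phosphodiesterase, was detected in 1 WT cell, at 5998, and in 3 N1-CKO cells, at 18656, 3123 and 27978. In the other 22 cells it was at most 493, and the difference was 1.91 in all cells, 3.83 on the arrays with high 18S signal and 0.70 on those with low.

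Among the cone genes, Gnb3, the beta subunit of cone transducin, differed most between the groups. It was detected in 4 of 13 WT cells (30.8%, exact 95% interval 9.09% to 61.4%) and 9 of 13 N1-CKO cells (69.2%, 38.6% to 90.9%). These intervals cover counting error over cells only and do not compare the groups. Its signal ran from 0.936 through a median of 78.6 to 47414 in WT and from 3.51 through 6290 to 46943 in N1-CKO cells. Most WT cells were dim and most N1-CKO cells bright, though each group held both kinds. The mean log2 signal was 8.05 ± 3.87 (SD, 13 cells) in WT and 11.17 ± 3.69 (SD, 13 cells) in N1-CKO, a difference of 3.12, which was 2.21 on the arrays with high 18S signal and 3.69 on those with low. Among the cells whose Gapdh ratio did not exceed 3 it was 3.32.

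Gnb3 is also expressed by bipolar cells. Of 9 measured bipolar cell markers, 3 (33.3%) were detected in any cell, against 58.1% of all genes. None of the 9 was detected in N1-CKO cells, against 50.4% of all genes, and WT cells had 0 to 2 of them. The WT cells with any were 9, 10, 11 and 13, and Gnb3 was detected in WT cells 6, 10, 11 and 13. Within WT cells the numbers of bipolar markers and of photoreceptor genes (without Gnb1 and Unc119) had r = 0.63. It was 0.53 without the 2 cells farthest from the median number of bipolar markers. Which cell type the Gnb3 signal came from was not tested. Ccdc136 was found in 7 WT and 10 N1-CKO cells, with signals of 15.7 to 36576 (median 2359) and 89.99 to 153298 (median 4151). The groups overlapped, with a difference of 1.85 that was 0.19 on the arrays with high 18S signal and 2.89 on those with low. It had the most cells of the cone genes, 17 against 13 for Gnb3, but at the 95th percentile it had 9 and Gnb3 10. Gngt2, the cone transducin gamma subunit, was detected in 2 WT cells (16235 and 10207) and 3 N1-CKO cells (6286, 1113 and 880), and its difference was 0.67. It was -0.77 on the arrays with high 18S signal, 1.57 on those with low and 0.01 where the Gapdh ratio was at most 3. Leaving out N1-CKO cell 4 gave 0.24, and leaving out WT cell 11 gave 1.27. The N1-CKO signals counted as detected were all below the WT ones. The lowest, 880 in N1-CKO cell 10, was 1.11 times the threshold, and a signal of 889 in another cell was not detected. Gngt2 was detected in 10 cells at the 80th percentile, 3 at the 95th and 3 with 1 common threshold.

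Across all 28 measured genes, the mean log2 signal was at least 1 higher in N1-CKO cells for 5 (17.9%, against 9.98% of all genes), namely Gnb3, Pde6g, Ccdc136, Unc119 and Rbp3. It was at least 1 lower for 0 of the 28 (against 11.1% of all genes) with the probe sets used, though Gnb1 passes that limit in the settings given above. The median difference was 0.18 over the 28 genes and 0.05 over all genes, and for the 28 it was -0.02 on the arrays with high 18S signal and 0.68 in the cells with a Gapdh ratio up to 3. The median WT cell had 4 of the listed genes detected (1 to 9) and the median N1-CKO cell 5 (1 to 12), so the groups overlapped widely.

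Other lists moved between the same cells. Of 12 photoreceptor transcription factors, the median WT cell had 4 detected (1 to 8) and the median N1-CKO cell 7 (2 to 9). For 21 mitosis genes the medians were 11 (2 to 20) and 2 (0 to 14), and for 14 progenitor genes 10 (5 to 14) and 6 (2 to 10). The part of these differences in the values above was not tested.

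**Figure D2:**
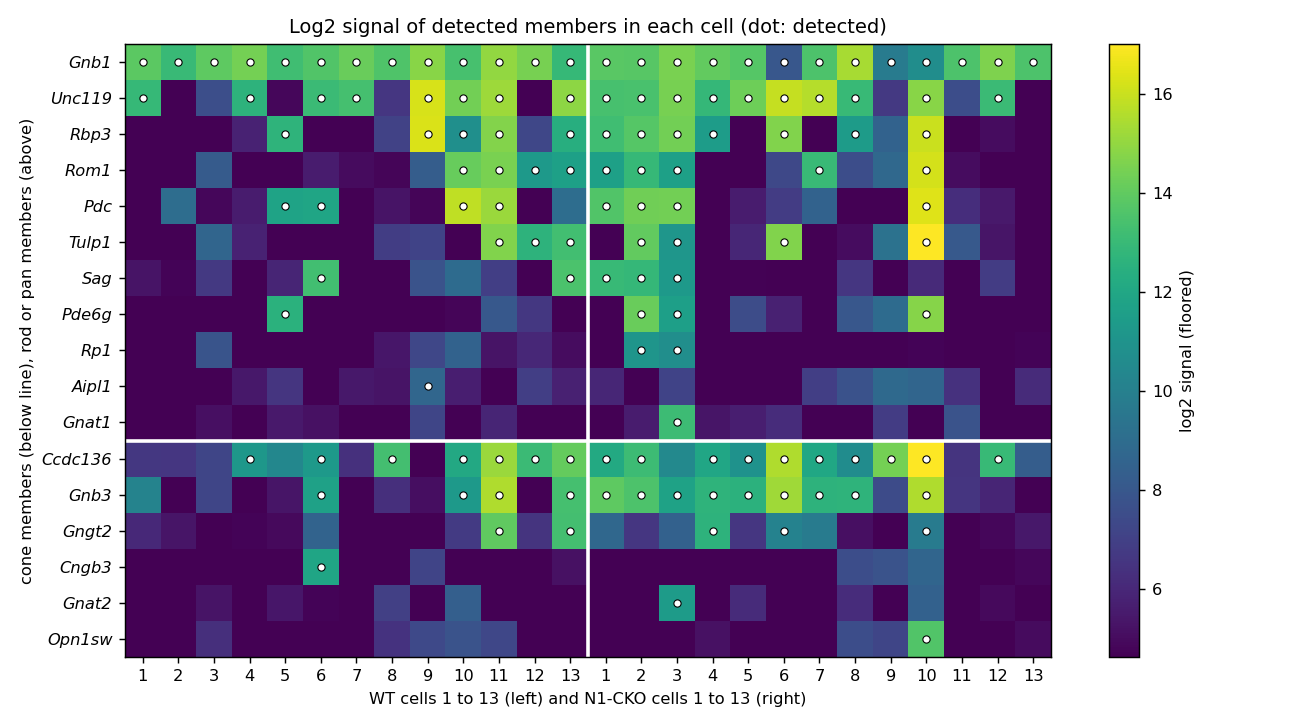
Log2 signal (colour) of each detected gene (rows) in each of the 13 WT cells and 13 N1-CKO cells (columns), with a dot where the gene was detected. Bright rows line up in the same columns, chiefly WT cells 11 and 13 and N1-CKO cells 2, 3 and 10, whereas Gnb1 is bright in nearly every column.

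Detections were spread unevenly over the cells. Gnb1 and Unc119, the rod or shared genes detected in the most cells (26 and 18), were left out. There were then 87 detections in all, and 63 of them (72.4%) fell in the 9 cells that had at least 5 of the remaining 26 genes. These were WT cells 6, 10, 11 and 13 and N1-CKO cells 1, 2, 3, 6 and 10. WT cells 11 and 13 had 7 each, and N1-CKO cells 2, 3 and 10 had 9, 10 and 9. At the other end, 4 WT and 2 N1-CKO cells had 0. The limit of 5 genes was chosen with the values in view. Cells picked by their number of detections hold a high share by construction, and no share for other genes is set beside it. Of the 9 cells, 4 had high 18S signal and 1 a Gapdh ratio above 3.

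Pairs of these genes were bright in the same cells. For the 12 genes detected in at least 2 cells, the median Pearson's r of log2 signal over the 66 pairs was 0.41 (quartiles 0.17 and 0.53) across 26 cells, against 0.01 over pairs of all 8280 genes detected in at least 2 cells. An r of at least 0.5 was reached by 30.3% of the pairs and by 0.841% of pairs of all genes. Other lists also had raised values across the same cells. The median r was 0.53 for 21 mitosis genes (58.6% of pairs at 0.5 or more). It was 0.28 for 14 progenitor genes (16.5%) and 0.22 for 10 photoreceptor factors (15.6%). The points share the array scaling and the amplification, so r is given as a description. The median r of the photoreceptor genes was 0.43 within WT cells and 0.43 within N1-CKO cells, 0.54 on the arrays with high 18S signal and 0.37 on those with low.

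Each of the 12 genes was also set against the mean of the others, with Gnb1 and Unc119 left out of that mean. Rom1 followed it most closely, with r = 0.79 over 26 cells, followed by Pdc at 0.73, Rbp3 at 0.71 and Gnb3 at 0.70. Unc119 was at 0.49, and Gnb1 stood apart at -0.23. The pairs with the highest r were Gngt2 with Gnb3 (0.77) and Pdc with Rom1 (0.70). Gngt2 and Gnb3 are subunits of the same cone G protein, and every one of the 5 cells with Gngt2 detected had Gnb3. Pdc was detected in 8 cells and Rom1 in 9, and 6 cells had both.

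**Figure D3:**
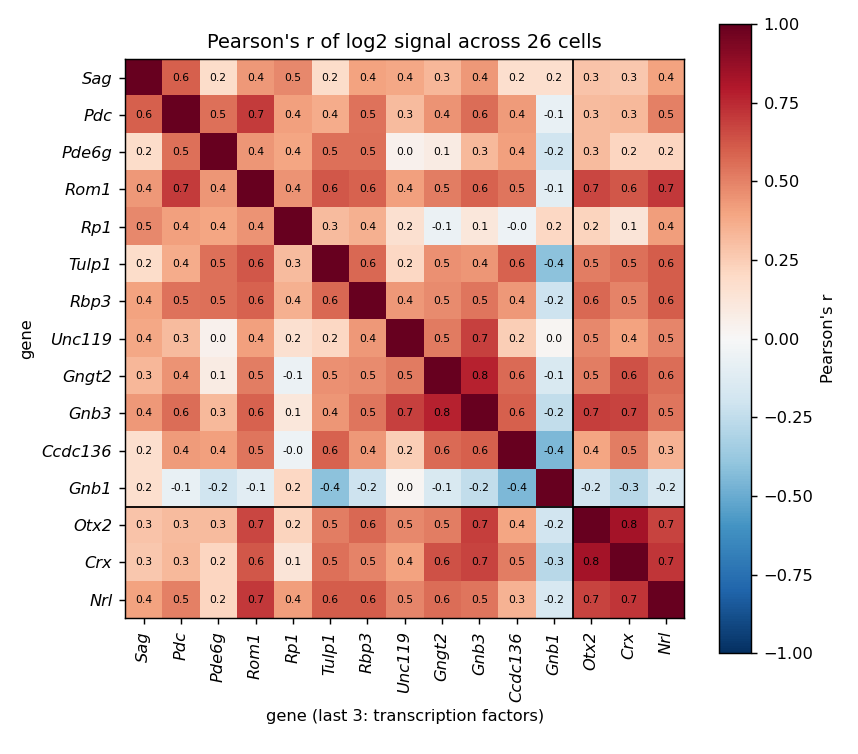
Pearson's r (colour) of log2 signal across 26 cells for each pair of genes detected in at least 2 cells, with 3 transcription factors as the last rows and columns. Most squares are positive, with the highest for Gngt2 and Gnb3 (0.77), and the row of Gnb1 is the exception.

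Cells with a rod or shared gene often had a cone gene too. With Gnb1 and Unc119 left out, 13 of the 26 cells had both a rod or shared gene and a cone gene detected, 2 had only rod or shared genes, 5 only cone genes and 6 neither. In WT cells these counts were 5, 2, 2 and 4, and in N1-CKO cells 8, 0, 3 and 2. With 15 cells having a rod or shared gene and 18 a cone gene, some overlap follows from the counts alone. Genes shared by rods and cones stand on the rod side, so the counts do not tell cells with mixed transcripts from cone cells. Cone genes other than Gnb3 and Ccdc136 were detected in 7 cells, and all 7 also had a rod or shared gene. N1-CKO cell 10, which had the opsin Opn1sw on 1 of its 2 probe sets, also had Pde6g, Pdc, Rom1, Tulp1 and Rbp3. N1-CKO cell 3 had both Gnat1 and Gnat2.

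The cells with these genes were compared with those of 4 of their known regulators. Otx2 was detected in 18 cells, Crx in 16, Nrl in 18 and Neurod1 in 22, and 15 cells had Otx2, Crx and Nrl together. All 9 cells with at least 5 of the photoreceptor genes were among these 15. Every cell with Rom1, Tulp1, Sag or Gngt2 detected had all of Otx2, Crx and Nrl, and Gnb3 cells had Otx2 in 13 of 13, Crx in 12 and Nrl in 11. For Rbp3 the counts were 11, 11 and 10 of 12 cells, and for Ccdc136 14, 13 and 13 of 17. Not all photoreceptor factors went with the genes. Rorb, an orphan nuclear receptor, was detected in 17 cells. It passed in 0 of 2 Rp1 cells, 2 of 5 Sag cells and 3 of 8 Pdc cells, but in all 5 Gngt2 cells. These counts depend on each array's threshold. Rorb signal was at least 1186 in every N1-CKO cell and reached 2189 in a cell where it was not detected. The 2 Rp1 cells, N1-CKO cells 2 and 3, had thresholds of 2112 and 1536. The r of Rorb was -0.31 with Rom1 and -0.11 with Rbp3. For Casz1, a zinc finger factor detected in 6 cells, r was -0.13 with Rom1 and 0.14 with Rbp3.

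WT cell 5 had Pdc at 3599, Pde6g at 5998 and Rbp3 at 6585, with Otx2, Crx and Nrl all undetected, Neurod1 detected, and 19 of the 21 mitosis genes detected. The reverse also occurred. N1-CKO cell 9 had 8 of the 12 factors detected and, beside Gnb1, only Ccdc136 of the photoreceptor genes, and WT cell 9, also with 8 factors, had only Rbp3 and Aipl1 beside Gnb1 and Unc119. Across 26 cells the number of photoreceptor genes (without Gnb1 and Unc119) and of factors had r = 0.58 (rho = 0.59), and r = 0.51 without the 2 cells farthest from the median number of factors. It was 0.65 within WT cells (0.72 without the 2 farthest), 0.48 within N1-CKO cells (0.23), 0.28 on arrays with high 18S signal (-0.32) and 0.75 on arrays with low (0.79). The high 18S set holds 10 cells, and r there changed sign without 2 of them, so the relation is uncertain on those arrays.

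Transcripts of cell division were found in many of the same cells. Mki67, a marker of cycling cells, was detected in 15 of the 26 cells, including all 5 with Sag, 7 of the 8 with Pdc and 7 of the 9 with Rom1. For Rbp3 it was 7 of 12 cells, for Gnb3 7 of 13, for Ccdc136 9 of 17 and for Gngt2 2 of 5. Among the 9 cells with at least 5 photoreceptor genes, 7 had at least 9 of the 21 mitosis genes detected, as had 6 of the other 17 cells, a limit chosen with the values in view. N1-CKO cells 6 and 10 had 3 and 1. The 6 cells with at least 15 mitosis genes, all of them WT, had at most 3 photoreceptor genes each. Over 26 cells the numbers of the lists had r = -0.04 (0.16 without the 2 cells farthest from the median number of mitosis genes). The values were -0.29 (-0.66) within WT cells and 0.63 (0.17) within N1-CKO cells.

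**Figure D4:**
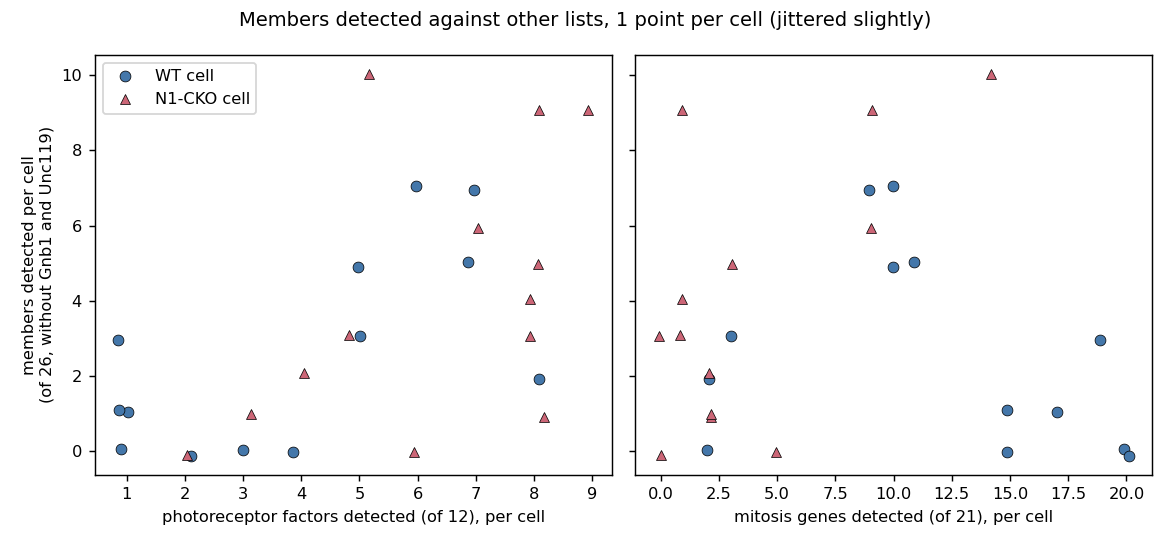
Number of photoreceptor genes detected per cell, of 26 without Gnb1 and Unc119 (vertical axis), against the number of photoreceptor factors (left, of 12) or mitosis genes (right, of 21) detected in the same cell (horizontal axes), 1 point per cell and coloured by group. Cells with many photoreceptor genes all had at least 5 factors, while their mitosis genes ranged from 1 to 14.

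Of 25 other measured genes with functions in photoreceptors, 9 (36.0%) were detected in at least 1 cell, below the 58.1% of all genes. Cdhr1, a cadherin at the base of the outer segment, passed in 3 WT cells and 5 N1-CKO cells, and Abca4, the retinoid transporter of the disc rim, in 3 and 4. Prom1, which organises membrane protrusions, was detected in 6 and 7, and Elovl4, an enzyme that makes very long fatty acids, in 3 and 3.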

How the data were processed

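For 13 WT and 13 N1-CKO cells the authors deposited linear array intensity. MAS5 is the tool named, per the submitters' processing notes, with its version and settings not given in the sources used here. Every array had a trimmed mean (2% off either end) of 500.0, so RNA per cell cannot be compared. Of 45101 probe sets, 64 are controls, and GEO's platform annotation names 1 gene for 34958. Where a gene had several probe sets, the brightest by mean log2 signal stood for it. The pooled median signal served as the floor, and detection meant 4504 probe sets per cell. Python 3.11.15, numpy 2.4.6, pandas 2.3.3, scipy 1.17.1 and matplotlib 3.10.9 were used, and the computations were tested on simulated data.

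The genes and lists were chosen with earlier results of these data known. Genes detected in at least 3 of 26 cells are described in full, and up to 4 genes of each other list, detected in at least 6 cells and with the largest differences, are named. The 6 unlisted genes most like the listed ones by Pearson's r are also named, among those detected in at least 6 cells. Intervals are exact Clopper-Pearson 95% intervals, which treat the cells as independent and do not compare the groups. Precision is limited by how few arrays there are. Alternatives changed the threshold, floor, probe sets, scaling and cells.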

Additional observations from a re-analysis of the deposited data

How the results depend on the processing

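Counts of detected genes depend on the threshold: 24 of the 28 were detected at the 80th percentile and 13 at the 95th. Leaving out each cell in turn gave 15 to 17 detected genes, medians per cell of 3.5 to 4 (WT) and 5 to 5.5 (N1-CKO), a median pairwise r of 0.39 to 0.43 and a median difference of 0.07 to 0.39. The median difference was -0.02 on the arrays with high 18S signal. In the cells with a Gapdh ratio up to 3 it was 0.68. On the high 18S arrays the differences of Rbp3 (-0.24), Unc119 (-0.11), Rom1 (-0.73), Gngt2 (-0.77) and Sag (0.06) changed sign; the cause was not tested. No paired analysis was possible because the results come from no test and the cell numbers only name cells.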

Other observations

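Among 4674 unlisted genes detected in at least 6 cells, those whose signal followed the mean of the photoreceptor genes most closely over 26 cells were Impdh1 (r = 0.84, detected in 2 WT and 7 N1-CKO cells), H1f2 (0.80), Insm2 (0.74), Gdpd5 (0.74), Nrl (0.72) and a transcript listed only as BB283400 (0.71). Impdh1 encodes an enzyme of guanine nucleotide synthesis, H1f2 a linker histone, and Insm2 a zinc finger factor. The r of Impdh1 was 0.84 within WT and 0.83 within N1-CKO cells. Of the other photoreceptor factors compared, Otx2 ranked 12 (0.66), Crx 16 (0.64), Prdm1 79 (0.48), Neurod1 110 (0.44), Mef2d 296 (0.33), Casz1 2026 (0.02) and Rorb 3201 (-0.13). Within WT and N1-CKO cells r was 0.66 and -0.11 for Neurod1, 0.78 and 0.52 for Otx2, and 0.72 and 0.54 for Crx. The points share array scaling and amplification, and these values are a description.

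Genes of the other lists are given as cells with detection in WT and then N1-CKO, for up to 4 genes a list with the largest differences. Among photoreceptor factors, Neurod1 had 9 and 13, Otx2 7 and 11, Prdm1 4 and 10, and Mef2d 6 and 8. Of the mitosis genes, Nusap1 had 10 and 2, Cdca8 9 and 2, Hmgb2 8 and 1, and Cdc20 10 and 3. Among progenitor genes, Id3 had 12 and 3, Zfp36l1 11 and 4, Lhx2 12 and 5, and Ccnd1 13 and 10. For amacrine and horizontal cells, Gad2 had 3 and 4, Tfap2b 5 and 5, and Tfap2a 2 and 4. For Müller glia, Gpr37 had 9 and 3, Car2 11 and 6, Dbi 12 and 12, and Rlbp1 8 and 5. Of the 7 Müller glia genes detected, 3 (42.9%) were in more WT cells, against 39.9% of all genes. Another 3 (42.9%) were in more N1-CKO cells, against 43.0%, and 1 was in equal numbers. Kdr, listed for vessels, had 9 and 3. Only 3 of the 9 measured microglia, vessel and blood genes (33.3%) were detected in any cell, against 58.1% of all genes. No gene of the bipolar, ganglion or pigment epithelium lists was detected in at least 6 cells.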
